A study of Rattus norvegicus with 10 samples.

Results

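The 38 genes described here are the chemokine ligands and chemokine receptors of the rat, taken as every gene on the array whose symbol starts with Ccl, Cxcl, Cx3cl, Xcl, Ccr, Cxcr, Cx3cr or Xcr followed by a digit. The eosinophil-attracting ligands Ccl11 and Ccl24 and their receptor Ccr3 were left out by this rule. It found 27 ligands and 11 receptors among the 14217 genes with a probe set of their own. A gene with several such probe sets was represented by the one with the highest mean over all 10 arrays, which applied to 7 of the 38. The rule used names and brightness only, not the comparison of groups.

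The tumors were mammary tumors of female Sprague-Dawley rats, all given a single oral dose of 7,12-dimethylbenz(a)anthracene (DMBA, a chemical carcinogen) at 100 mg/kg. Final samples (n = 5) were taken at 19 weeks of age, after adriamycin (doxorubicin, an anthracycline) had been injected into the tail vein at 1 mg/kg per week for 6 weeks. Basal samples (n = 5) were trucut needle biopsies of the same tumors at 12 weeks, before any treatment. The tumors are coded 09I1, 11D2, 12I1, 29I1 and 43D1, each gave 1 sample to each group, and the samples were selected for Bloom-Richardson grade II histology. The sample labels call the final material the total tumor, whereas the design text calls it trucut material. No untreated tumor of the later age was included. The sample titles of the 2 groups carry separate series of code numbers, and what these numbers stand for is not given. Treatment, age, kind of sample and whatever the code numbers stand for therefore cannot be told apart. The labels do not say whether the 5 tumors grew in separate rats.

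Chemokines are small secreted proteins that attract cells along a gradient, and their receptors are G protein-coupled receptors carried mainly by leukocytes. The spacing of the first cysteines divides them into the CXC, CC, C and CX3C classes. Inflammatory chemokines are induced by cytokines and bacterial products and draw neutrophils, monocytes and effector T cells, while homing chemokines place lymphocytes and dendritic cells in lymphoid and mucosal tissue. In mammary tumors they are best known for bringing in macrophages and lymphocytes, with ligands made by tumor cells, stroma and immune cells alike.

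The promoters of 4 CXC ligands are shown because these genes had some of the widest differences between tumors and because known regulators of the class act there. Cxcl9, Cxcl10 and Cxcl11 are neighbours on chromosome 14 and are induced by interferon gamma. Cxcl1 lies on the same chromosome in a neighbouring group with Cxcl2, Cxcl3 and Cxcl6. Each sequence runs 5′ to 3′ over 300 bases, 250 before and 50 after the annotated start in RefSeq (GRCr8 build). Capitals mark matches, on either strand, to GAAA followed after any 2 bases by GAAA (the core of the interferon-stimulated response element), to GGG followed after any 3 bases by TTCC (a κB motif, bound by NF-κB) and to TTC followed after any 3 bases by GAA (a GAS motif, bound by STAT proteins).
Cxcl9 (chr14:16006916-16007215, plus strand): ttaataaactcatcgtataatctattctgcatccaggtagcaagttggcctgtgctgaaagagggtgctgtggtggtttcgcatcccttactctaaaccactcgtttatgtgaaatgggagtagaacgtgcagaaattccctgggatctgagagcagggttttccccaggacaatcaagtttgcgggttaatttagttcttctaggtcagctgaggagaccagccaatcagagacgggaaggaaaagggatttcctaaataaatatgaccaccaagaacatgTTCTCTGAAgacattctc
Cxcl10 (chr14:15988816-15989115, plus strand): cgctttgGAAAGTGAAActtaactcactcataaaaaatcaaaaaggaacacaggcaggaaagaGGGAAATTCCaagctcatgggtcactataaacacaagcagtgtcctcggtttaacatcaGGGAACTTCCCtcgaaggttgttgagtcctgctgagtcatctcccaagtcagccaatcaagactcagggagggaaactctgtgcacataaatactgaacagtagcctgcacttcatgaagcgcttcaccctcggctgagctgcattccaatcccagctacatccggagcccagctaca
Cxcl11 (chr14:15973478-15973777, plus strand): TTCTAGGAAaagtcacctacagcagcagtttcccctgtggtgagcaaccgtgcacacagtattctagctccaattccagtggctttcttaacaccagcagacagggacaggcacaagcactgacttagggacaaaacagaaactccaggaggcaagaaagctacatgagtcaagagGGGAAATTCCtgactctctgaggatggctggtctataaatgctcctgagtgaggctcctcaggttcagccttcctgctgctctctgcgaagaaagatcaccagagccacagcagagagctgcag
Cxcl1 (chr14:17479272-17479571, minus strand): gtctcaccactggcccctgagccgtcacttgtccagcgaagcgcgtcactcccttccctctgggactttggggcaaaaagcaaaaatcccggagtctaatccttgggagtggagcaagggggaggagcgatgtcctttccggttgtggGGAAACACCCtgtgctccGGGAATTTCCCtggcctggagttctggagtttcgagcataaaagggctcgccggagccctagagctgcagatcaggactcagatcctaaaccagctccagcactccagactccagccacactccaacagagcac
Counted from the first base printed, Cxcl9 held 1 GAS match at bases 283 to 291, after the annotated start. Cxcl10 held the response-element core at bases 8 to 17 and κB matches at 64 to 73, 123 to 132 and 124 to 133, the last pair overlapping. Cxcl11 held a GAS match at bases 1 to 9 and a κB match at 177 to 186. Cxcl1 held κB matches at 149 to 158, 167 to 176 and 168 to 177, again with an overlapping pair. A promoter was listed for 30 of the 38 genes, and the κB letters occurred in 9 of these 30, against 5.37% of 33469 rat promoters of the same length. The GAS letters occurred in 5 of 30 against 8.87% of all promoters. The response-element core occurred in 2 of 30, Cxcl10 and Ccl19, against 3.92% of all. These are matches of letters and not measured binding sites.

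All values are log2 levels from the robust multichip average, so a difference of 1 is a 2-fold difference, and a level is compared only with levels of the same probe set. Changes are final minus basal within a tumor. An SE beside a mean change is the moderated SE of the paired limma fit described below. In that fit the variance of a probe set is drawn toward that of other probe sets. For genes whose changes differed widely between tumors, it is smaller than the plain SE of those changes. Lists of 5 values follow the order 09I1, 11D2, 12I1, 29I1 and 43D1. The medians of the 10 arrays lay between 5.93 and 6.12, and their lower quartiles between 4.0 and 4.29. The final array of 09I1 stood apart from the other 9. Its median correlation with the rest was 0.938, against 0.975 to 0.984 for the others, and its beta-actin 3′ minus 5′ probe difference, a sign of RNA quality, was 2.61 against 0.72 to 0.96. For several single genes whose mean change shifted without that tumor, both values are given. Markers of mammary epithelium were present throughout: the summed linear level of 12 such genes was 30982 to 47191 in final and 36259 to 47832 in basal samples, and none of the 12 lay below the array's lower quartile on all arrays. Of the 38 chemokine genes, Cxcr1 was below the lower quartile on all 10 arrays, Cxcl6 on 9 and Ccr4 on 6. These 3 were below the filter on low values and have no test.

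The paired comparison asks how the genes differ after adriamycin from before it. No chemokine ligand or receptor moved the same way strongly enough in all 5 tumors to pass the test of final against basal samples. In a paired limma fit of 23281 probe sets, 0 of the 35 tested members had a Benjamini-Hochberg adjusted p under 0.05, the lowest being 0.977. The share of all tested probe sets called was 0%. At an unadjusted p under 0.05 limma gave 2 members, both higher in final samples, which is 5.71% of 35 against 4.02% of all tested probe sets. By direction the shares of all probe sets were 1.71% higher and 2.3% lower. Both members were CC ligands, Ccl28 and Ccl5, of which Ccl28 remained without tumor 09I1. Over the 38 genes the mean change was positive in 23 and negative in 15, with a median of 0.098, against a median of 0.026 over all 14217 genes. Ligands had a median change of 0.076 (15 higher, 12 lower) and receptors 0.099 (8 higher, 3 lower). Levels in the final samples lay above all basal ones for 0 of the 38, where 0.429% of all genes did, and below all basal ones for 0, where 0.359% did.

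Ccl5, also called RANTES, attracts T cells, monocytes and NK cells, and it was the 1 gene of the 38 that was higher in every tumor. It read 8.74, 9.01, 8.87, 9.22 and 8.77 in final samples, against 7.60, 8.83, 8.58, 9.11 and 6.43 in basal samples. The final levels were close to one another. The basal levels of 43D1, 09I1 and 12I1 lay below all of them, and the groups overlapped through 11D2 and 29I1. The change averaged 0.81 ± 0.34 (SE, 5 tumors), with an unadjusted limma p of 0.0481 and an adjusted p of 0.977. Without 43D1 it averaged 0.43, with an unadjusted limma p of 0.104. Among all genes, 3.65% were higher in 5 of 5 tumors and 2.31% lower in 5 of 5, against 1 and 0 of the 38.

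Ccl28, a mucosal ligand of Ccr10 that the lactating mammary gland of the mouse makes to draw antibody-secreting cells, had the smallest p among the members and was singled out for that. It read 6.37, 4.91, 5.29, 5.47 and 4.55 in final samples, against 5.88, 5.04, 4.01, 3.71 and 3.52 in basal samples. It was higher in 4 of 5 tumors, 11D2 being the exception at -0.13. The mean change was 0.89 ± 0.27 (SE, 5 tumors), with an unadjusted limma p of 0.0123 and an adjusted p of 0.977. The basal values of 12I1, 29I1 and 43D1 lay below their arrays' lower quartiles, so these changes start from levels near the bottom of the scale.

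Within single tumors the chemokine genes changed more than genes at large, and in opposite directions in different tumors. There is 1 sample on each side here, so the counts describe these pairs of arrays and carry no test. The median absolute change of a member in a tumor was 0.585, against 0.237 over all genes. Wide changes were not particular to chemokine genes. The same median was 0.83 for T and NK cell markers, 0.88 for macrophage markers and 0.33 for mammary epithelium markers. In 43D1, 33 of the 38 genes were higher and 5 lower in the final sample, where 52.1% of all genes were higher and 47.9% lower, and the median change was 0.64. Changes above 1 were seen in 12 members there, where 3.27% of all genes passed that mark, and below -1 in 0, where 2.61% did. In 29I1, by contrast, 28 genes were lower and 10 higher, where 51.3% of all genes were lower and 48.7% higher, and the median was -0.66. Changes below -1 were seen in 15 members, where 5.24% of all genes passed that mark, and above 1 in 1 member (Ccl28), where 1.39% did.

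The remaining tumors lay between these 2. In 11D2, 26 members were higher and 12 lower, where 48.4% and 51.5% of all genes were, with 10 above 1 (3.21% of all genes) and 0 below -1 (1.04%). The 11D2 median was 0.17. The final sample of this tumor also carried skeletal muscle RNA, with a median change of 4.81 over 9 muscle markers against -0.27 to 0.33 in the other tumors, and its part in the chemokine values was not tested. In 12I1, 17 were higher and 21 lower, where 53.4% and 46.6% of all genes were, with a median of -0.11. In it 2 genes passed 1 (1.7% of all genes) and 5 lay below -1 (2.03%). In 09I1, 27 were higher and 11 lower, where 60.6% and 39.4% of all genes were, with 10 above 1 and 3 below -1. All genes were widely spread in that tumor, whose final array stood apart, with 10.8% above 1 and 7.38% below -1. The SD of changes over all probe sets was 0.80 in 09I1, against 0.42 to 0.52 in the other 4.

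**Figure D1:**
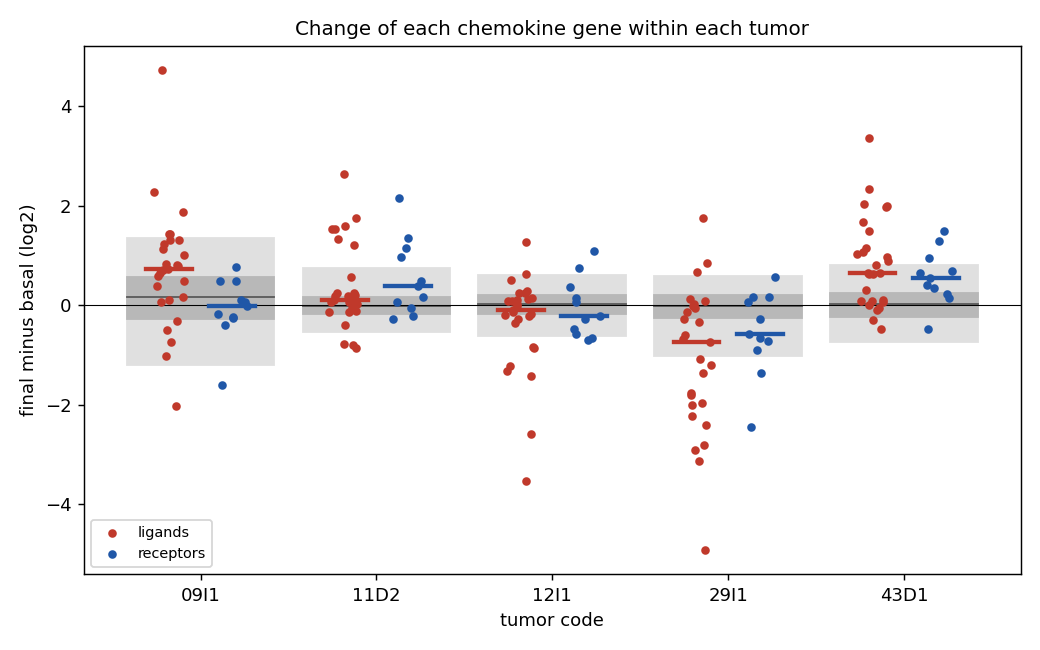
Change of each of the 27 ligands (red) and 11 receptors (blue) within each tumor, as final minus basal in log2 units on the vertical axis, with tumor codes along the horizontal axis. Coloured bars are medians, and the dark and light grey bands and grey line give the interquartile range, the 5th to 95th percentile and the median of all genes. The lowest ligand median, -0.73, is that of 29I1, and the highest are those of 09I1 at 0.72 and 43D1 at 0.65.

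Ligands and receptors differed most in 09I1 and agreed in sign in the other tumors. Ligand medians were 0.72, 0.11, -0.09, -0.73 and 0.65 over the 5 tumors. Receptor medians were -0.01, 0.38, -0.21, -0.59 and 0.54. Of the ligands 22, 18, 12, 6 and 23 of 27 were higher in the final sample, and of the receptors 5, 8, 5, 4 and 10 of 11.

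The spread between tumors came more from the basal biopsies than from the final samples. Across the 38 genes the mean level was 6.63, 6.79, 6.57, 6.47 and 6.71 in final samples, against 6.14, 6.36, 6.83, 7.39 and 5.94 in basal samples. The final means span less than the basal means, in which 29I1 was highest and 43D1 lowest. The basal biopsy of 29I1 held the highest of the 10 values for 13 members, where it did so for 9.84% of all genes. The basal biopsy of 43D1 held the lowest value for 17 members, where it did so for 14.1% of all genes. Without the 2 arrays of 09I1 these counts were 15 and 19 of 38, where the same arrays held the highest and lowest of 8 values for 16.7% and 20.2% of all genes.

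**Figure D2:**
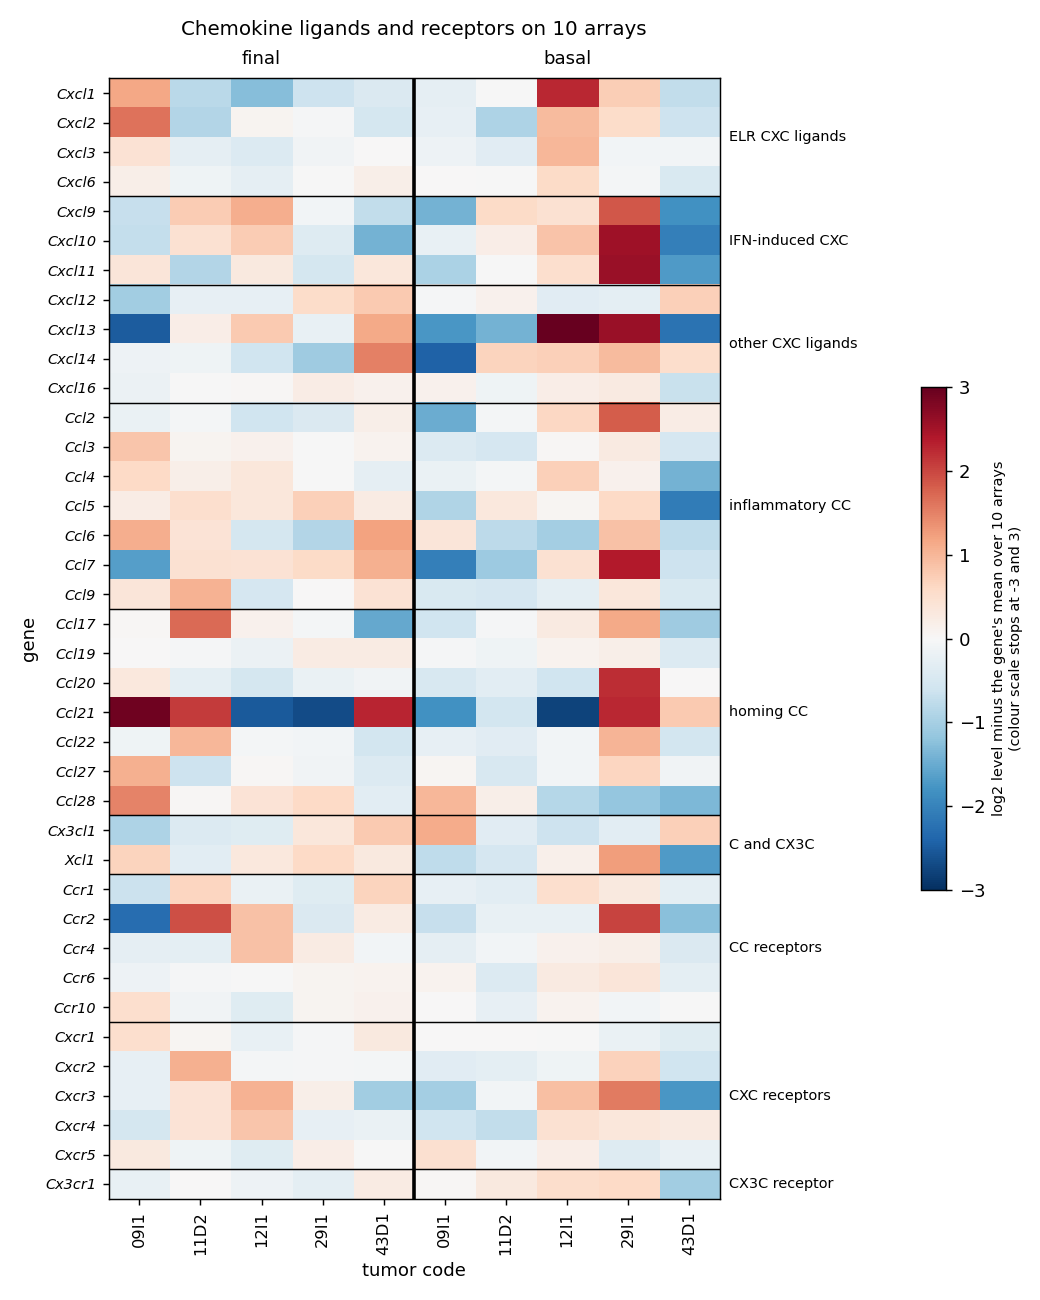
Level of each chemokine gene on each of the 10 arrays, as the log2 level minus the gene's mean over all arrays, with genes down the page by role and tumors across it, final samples at the left and basal samples at the right of the black line. Red is above and blue below the gene's own mean, with colours held at -3 and 3. The basal column of 29I1 is mostly red and that of 43D1 mostly blue.

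Measured gene by gene, the range over 5 tumors (highest minus lowest) was narrower in final than in basal samples for 23 of the 38 members, or 60.5%. Over all genes the share was 38.4%. This was not particular to chemokine genes: the final range was narrower for 15 of 18 T and NK cell markers and 12 of 13 macrophage markers. For mammary epithelium markers it was narrower in 4 of 12. The median range of the members was 1.33 in final and 1.80 in basal samples, whereas over all genes it was 0.71 in final and 0.53 in basal samples. Ligands and receptors were not alike in this: 19 of 27 ligands and 4 of 11 receptors had the narrower range in final samples. The count was 20 to 30 of 38 when each tumor was left out in turn. Without 09I1 it was 30 of 38, but 63.1% of all genes then had the narrower final range. Without 29I1 it was 20, against 36.2% of all genes.

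**Figure D3:**
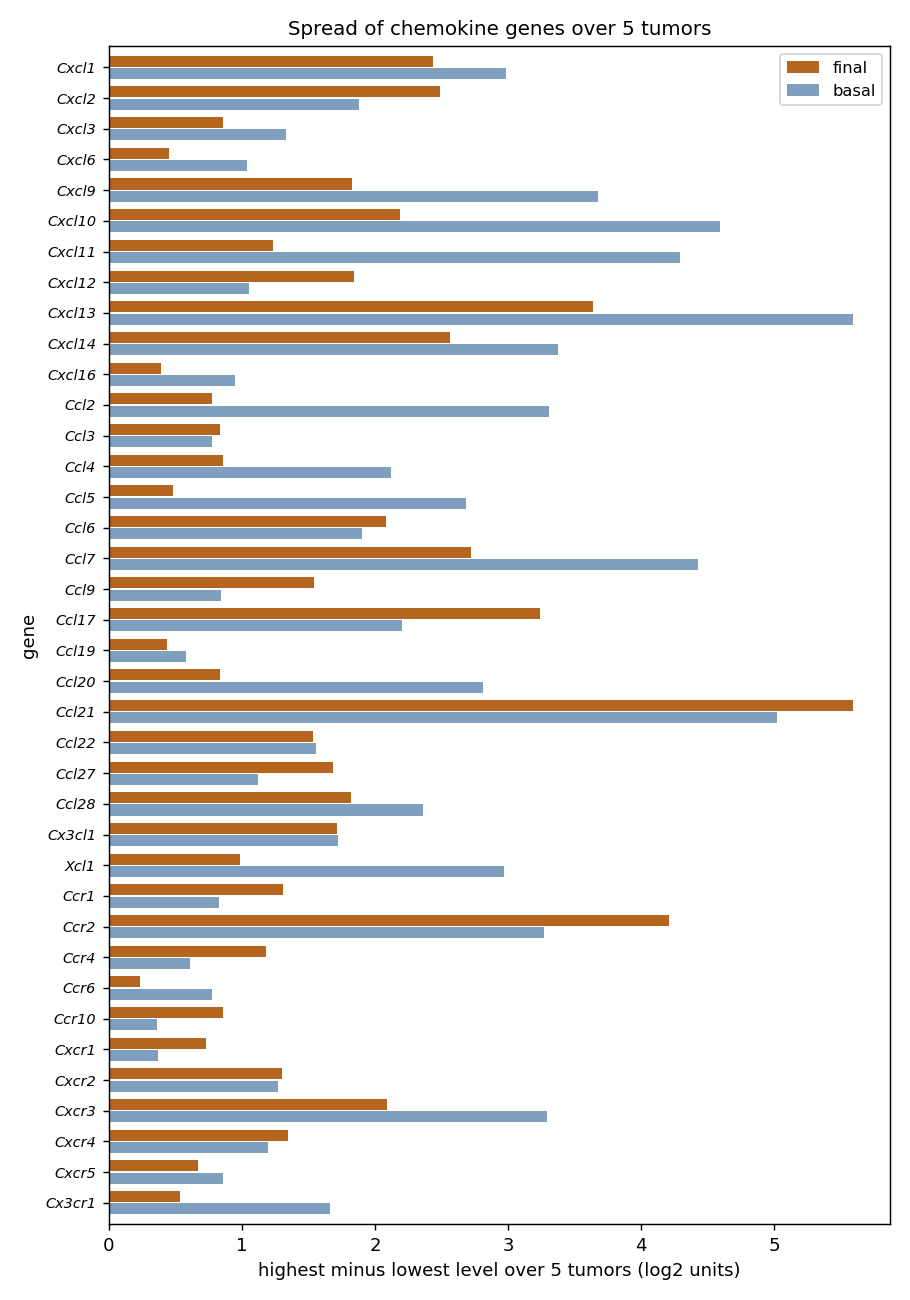
Range of each chemokine gene over the 5 tumors, as the highest minus the lowest level in log2 units, for final (brown) and basal (blue) samples, with genes down the page. The widest gaps are those of Cxcl11, with 1.23 in final and 4.29 in basal samples, and Ccl2, with 0.78 in final and 3.30 in basal samples.

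Among the ligands for neutrophils, Cxcl1 and Cxcl2, which act through Cxcr2 and carry the ELR motif in their protein, changed most in 09I1 and 12I1, in opposite directions. Cxcl1, whose promoter with 3 κB matches is printed above, read 8.39, 6.42, 5.95, 6.60 and 6.79 in final samples, against 6.96, 7.20, 9.48, 7.95 and 6.49 in basal samples. Its basal 12I1 value was above all others, and the final value of that tumor was the lowest of the 10. The changes were 1.43, -0.78, -3.53, -1.36 and 0.30, with a mean of -0.79 ± 0.64 (SE, 5 tumors) and a limma adjusted p of 0.977. One tumor decided its size: it was -0.10 without 12I1 and -1.34 without 09I1. Cxcl2 read 6.27, 3.77, 4.73, 4.61 and 4.13 in final samples, against 4.39, 3.71, 5.59, 5.20 and 4.03 in basal samples. It was highest in the final sample of 09I1. Its mean change was 0.12 with that tumor and -0.32 without it, and both 11D2 values were below the array's lower quartile. Cxcl3, a further member of that genomic group, changed by -1.42 in 12I1 and 0.58 in 09I1. Cxcl1, Cxcl2 and Cxcl3 were thus all lower in the final sample of 12I1, where 46.6% of all genes were lower. By the probe sets used, all 3 were higher in that of 09I1, where 60.6% of all genes were higher and the final array stood apart. The other tested probe sets of Cxcl3 disagreed in 09I1, with -0.59 and 0.38. Cxcl6 lay at the bottom of the scale and is left out of this count.

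Their receptor Cxcr2, the main chemokine receptor of rodent neutrophils, read 4.15, 5.45, 4.34, 4.35 and 4.34 in final samples, against 4.04, 4.11, 4.27, 5.07 and 3.80 in basal samples. One final sample, 11D2, stood above the other 4, and the groups overlapped. The change averaged 0.27 ± 0.27 (SE, 5 tumors). Cxcr2 lay below the array's lower quartile on 3 arrays, both of 09I1 and the basal one of 43D1, so no count of directions shared with its ligands is given. Neutrophil markers (7 genes) had median changes of 0.11, -0.09, -0.42, -0.98 and 0.19, and of these Mmp8 lay below the lower quartile on all arrays. Their summed linear level was 142.6 to 313.1 in final and 199.5 to 483.2 in basal samples. The part of neutrophils in the ELR ligand values was not tested.

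The interferon-induced ligands Cxcl9, Cxcl10 and Cxcl11 draw activated T cells and NK cells through Cxcr3, and all 3 were far lower in the final sample of 29I1 and higher in that of 43D1. Cxcl9 read 8.36, 9.82, 10.16, 8.98 and 8.33 in final samples, against 7.65, 9.64, 9.52, 10.94 and 7.26 in basal samples. The highest and the lowest of its 10 values were both basal, from 29I1 and 43D1, so final values lay inside the basal range. The changes of 0.71, 0.18, 0.64, -1.96 and 1.07 gave a mean of 0.13 ± 0.42 (SE, 5 tumors), or -0.02 without 09I1. Its second probe set changed by -0.02 and not 0.71 in 09I1 and had the same signs in the other tumors.

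Cxcl10 read 6.06, 7.22, 7.53, 6.38 and 5.34 in final samples, against 6.55, 6.97, 7.62, 9.30 and 4.71 in basal samples. Again the basal samples of 29I1 and 43D1 were the highest and lowest arrays. The mean change was -0.53 ± 0.49 (SE, 5 tumors), with -2.92 in 29I1 and -0.49 to 0.63 elsewhere. Cxcl11 read 7.17, 5.94, 7.11, 6.29 and 7.16 in final samples, against 5.87, 6.80, 7.33, 9.42 and 5.13 in basal samples. Its final values stayed within 1.23 units, and its basal values spread over 4.29. The changes were 1.30, -0.86, -0.22, -3.13 and 2.04, with a mean of -0.17, or -0.54 without 09I1. Median changes of the 3 ligands were 0.71, 0.18, -0.09, -2.92 and 1.07 over the tumors. Of their promoters printed above, that of Cxcl10 held the response-element core and those of Cxcl9 and Cxcl11 a GAS match. In 29I1 the 3 genes changed by -1.96, -2.92 and -3.13.

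Their receptor Cxcr3, carried by activated T cells and NK cells, was also lower in the final sample of 29I1 and higher in that of 43D1. It read 6.38, 7.05, 7.68, 6.81 and 5.59 in final samples, against 5.62, 6.56, 7.53, 8.18 and 4.89 in basal samples. The final sample was higher by 0.15 to 0.77 in 4 tumors, and the change in 29I1 was -1.37. The mean change was 0.15 ± 0.32 (SE, 5 tumors), or -0.0085 without 09I1. Cxcl9, by the probe set used, and Cxcr3 changed in the same direction in 5 of 5 tumors, with the second Cxcl9 probe set at -0.02 in 09I1, whereas Cxcl10 and Cxcl11 each did so with Cxcr3 in 3 of 5. In whole tumor pieces, fewer cells of a type and less RNA per cell cannot be told apart. Medians of T and NK cell markers had the sign of the Cxcr3 change in every tumor. Cxcl10 had the other sign in 09I1 (-0.49), Cxcl11 in 11D2 (-0.86), and both did in 12I1 (-0.09 and -0.22). The 18 measured marker genes had median changes of 0.80, 0.90, 0.05, -0.73 and 1.11. Their summed linear level was 2098 to 4196 in final and 832 to 5622 in basal samples, and the part of these cells in the chemokine changes was not tested.

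**Figure D4:**
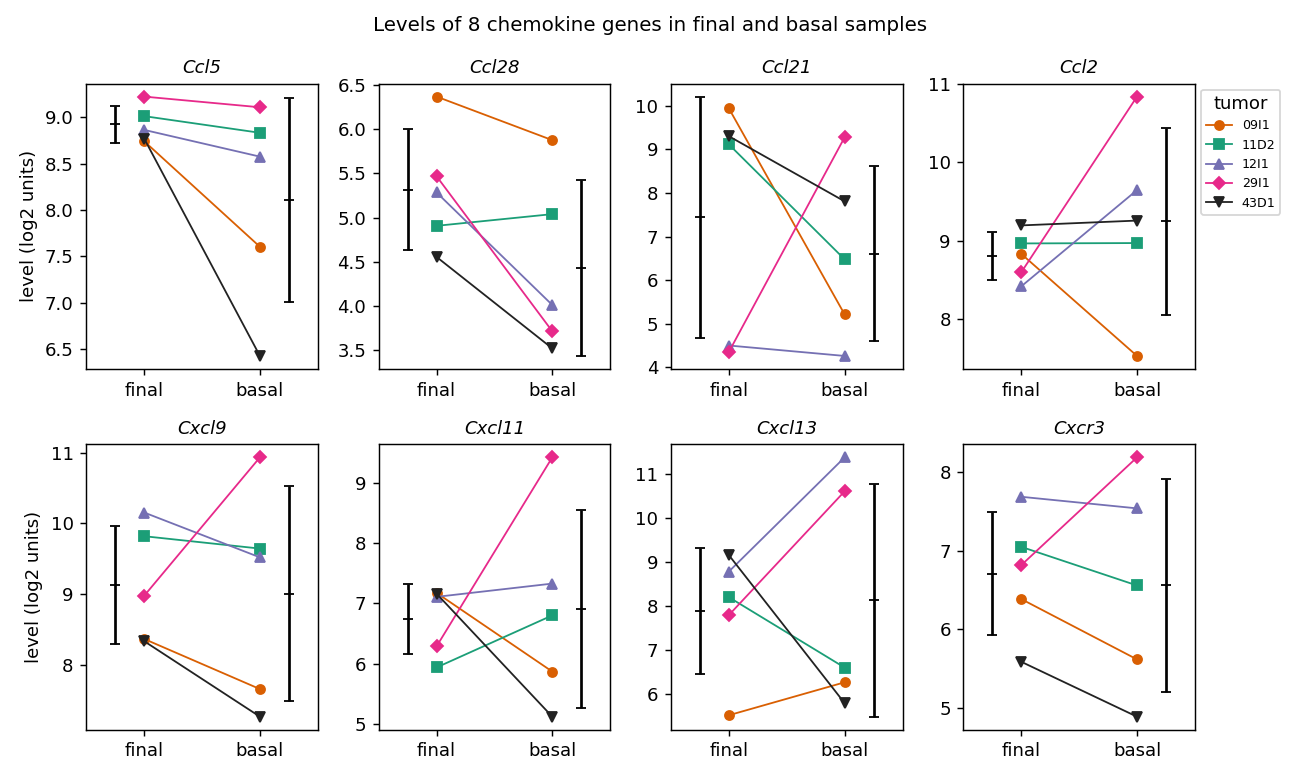
Levels of 8 chemokine genes in log2 units, final at the left and basal at the right of each panel, with 1 line per tumor and bars giving the mean and SD of 5 samples beside each group. The 5 final values of Ccl5 lie between 8.74 and 9.22, and the 29I1 line has its high end at the basal sample for Ccl21, Ccl2, Cxcl9, Cxcl11, Cxcl13 and Cxcr3.

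Cxcl13, which organises B cell follicles through Cxcr5, had levels that spread widely in both groups. It read 5.52, 8.20, 8.79, 7.80 and 9.16 in final samples, against 6.27, 6.60, 11.39, 10.61 and 5.79 in basal samples. The basal biopsies of 12I1 and 29I1 were the highest arrays, and the changes of -0.75, 1.60, -2.60, -2.82 and 3.37 ran both ways with a mean of -0.24 ± 0.91 (SE, 5 tumors), or -0.11 without 09I1. Cxcr5, its receptor on B cells and follicular T cells, stayed within narrow bounds at 7.49, 7.05, 6.82, 7.38 and 7.19 in final samples, against 7.67, 7.12, 7.40, 6.81 and 6.97 in basal samples. By the probe set used, receptor and ligand changed in the same direction in 3 of 5 tumors. The count is uncertain in 11D2, where that Cxcr5 probe set changed by -0.07. The second one, below the filter on low values, changed by 0.40 there. The 8 measured B and plasma cell markers had median changes of 0.29, 0.11, -0.72, -0.10 and 0.12, and of these Cr2 lay below the lower quartile on all arrays. Their part in the Cxcl13 values was not tested.

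The stromal ligand Cxcl12 and its receptor Cxcr4, a pair known from the spread of breast cancer cells, changed in opposite directions in 11D2 and 29I1 by all their probe sets. Cxcl12 read 9.32, 10.12, 10.12, 10.94 and 11.17 in final samples, against 10.34, 10.51, 10.04, 10.09 and 11.10 in basal samples. The groups overlapped, and the mean change was -0.08 ± 0.25 (SE, 5 tumors), or 0.15 without 09I1. Its other probe sets gave -2.48 and -1.34 in 09I1, where the one used gave -1.02. Cxcr4 read 8.16, 9.10, 9.51, 8.43 and 8.48 in final samples, against 8.09, 7.95, 9.15, 9.02 and 8.96 in basal samples. The 3 probe sets of Cxcr4 disagreed in 09I1, with 0.07 in the one used and -0.20 and -1.67 in the others, and those of Cxcl12 disagreed in sign in 12I1 and 43D1, so no count of shared directions is given for this pair.

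Of the other CXC ligands, Cxcl14, which epithelial cells make at steady state, changed by 2.28, -0.80, -1.31, -2.01 and 0.97. Its basal 09I1 value of 6.80 lay far below the other 9 arrays, and its second probe set changed by 0.34 in 09I1 and -0.34 in 43D1. The mean change of Cxcl14 was -0.18, or -0.79 without 09I1. Cxcl16, a membrane-bound ligand of Cxcr6, varied little, with 10.23 to 10.62 in final and 9.73 to 10.68 in basal samples.

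The monocyte attractant Ccl2, also called MCP-1, showed evenness in final samples and wide spread in basal ones. It read 8.84, 8.97, 8.42, 8.60 and 9.20 in final samples, against 7.54, 8.97, 9.65, 10.84 and 9.26 in basal samples. The basal 29I1 value was the highest of the 10 and the basal 09I1 value the lowest. The mean change was -0.45 ± 0.47 (SE, 5 tumors), or -0.88 without 09I1. Ccl7, its neighbour on chromosome 10 and likewise a ligand of Ccr2, changed by 0.38, 1.53, -0.02, -1.81 and 1.68.

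Ccr2, the receptor that lets inflammatory monocytes leave the blood, read 4.13, 8.34, 7.29, 5.99 and 6.66 in final samples, against 5.73, 6.19, 6.20, 8.44 and 5.17 in basal samples. Its highest values came from the basal sample of 29I1 and the final sample of 11D2, and the final sample of 09I1 was the lowest. The changes of -1.60, 2.14, 1.09, -2.45 and 1.49 gave a mean of 0.14 ± 0.69 (SE, 5 tumors), or 0.57 without 09I1. Ccl2 and Ccr2 changed in the same direction in 1 tumor, 29I1. Ccl2 barely changed in 11D2 (-0.0048) and 43D1 (-0.061), so its direction there carries little weight. Ccr1, a receptor gene near it on chromosome 8 and one that monocytes also carry, changed by -0.40, 0.98, -0.71, -0.65 and 0.95.

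Macrophage markers, too, were lower in 29I1 and higher in 43D1. The 13 measured genes had median changes of -0.25, 0.78, -0.77, -1.32 and 1.18, with 4, 12, 0, 1 and 13 of them higher in the final sample. Their summed linear level was 10094 to 18647 in final and 7556 to 30482 in basal samples. The part of macrophages in the CC ligand and receptor changes was not tested.

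**Figure D5:**
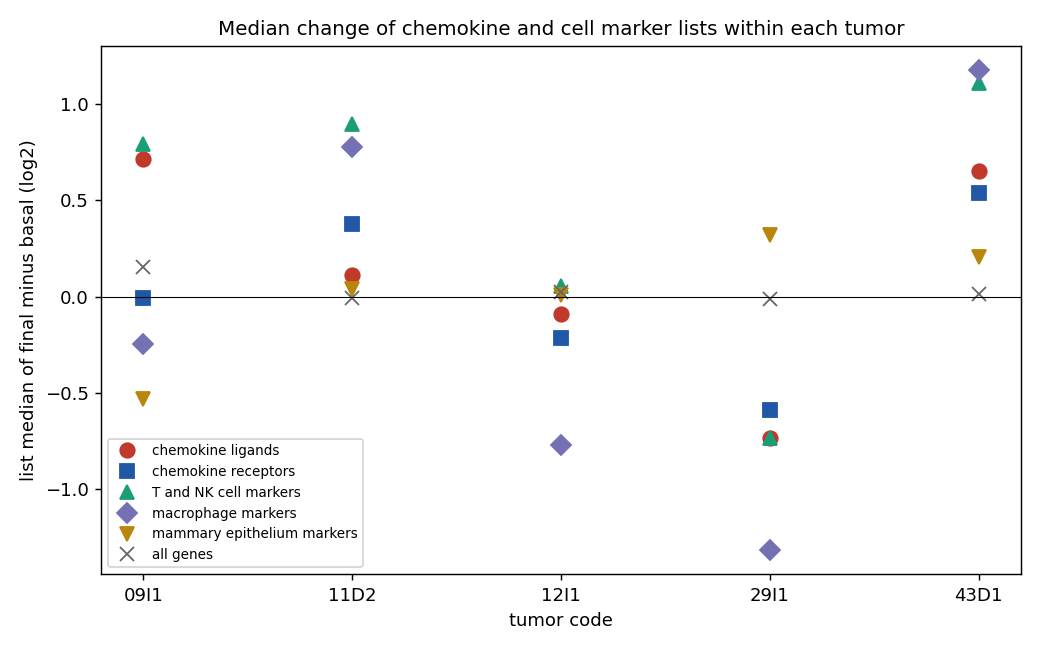
Median change of the chemokine ligands and receptors, of T and NK cell, macrophage and mammary epithelium markers, and of all genes within each tumor, in log2 units of final minus basal, with tumor codes along the horizontal axis. Ligands, receptors and both leukocyte lists lie below 0 in 29I1 and above 0 in 43D1, while the epithelium median is 0.32 in 29I1 and 0.21 in 43D1.

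The other inflammatory CC ligands leaned upward without passing any test. Ccl3 and Ccl4, macrophage inflammatory proteins that attract monocytes and T cells, changed by -0.27 to 1.22 and by -0.36 to 1.15. Ccl6 and Ccl9, rodent ligands of Ccr1, changed by -1.76 to 1.98 and by -0.34 to 1.54. Mean changes were 0.45 for Ccl3 (0.25 without 09I1), 0.34 for Ccl4, 0.53 for Ccl6 and 0.54 for Ccl9. Ccl9 lay below the array's lower quartile on 5 arrays, the final one of 12I1 and every basal one except 29I1. With Ccl2, Ccl5 and Ccl7 this group of 7 had median changes of 0.82, 0.57, -0.02, -0.34 and 1.15. All 7 were higher in the final sample of 09I1, where 60.6% of all genes were higher and the final array stood apart. In that of 29I1, 6 of 7 were lower, where 51.3% of all genes were. The 5 neighbours Ccl5, Ccl9, Ccl6, Ccl3 and Ccl4 on chromosome 10 were all higher in 09I1, 11D2 and 43D1. Of all genes 60.6%, 48.4% and 52.1% were higher in these tumors.

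Ccl21, which draws naive T cells and dendritic cells through Ccr7 and is made by lymphatic vessels and lymphoid stroma, had the largest changes of any member. It read 9.94, 9.12, 4.50, 4.35 and 9.30 in final samples, against 5.21, 6.48, 4.26, 9.28 and 7.81 in basal samples. Both groups held low and high values: 3 final samples and 1 basal sample were above 9, and 2 final samples and 1 basal sample were at 4.50 or below. A change of 4.73 in 09I1 stood against -4.93 in 29I1, and 12I1 was low in both samples. The mean was 0.84 ± 1.22 (moderated SE, 5 tumors), or -0.14 without 09I1 and 2.28 without 29I1. The plain SD of the changes of Ccl21 over the tumors was 3.62. Ccl19, the other Ccr7 ligand, was near the bottom of the scale, with 4.39, 4.34, 4.19, 4.63 and 4.62 in final samples, against 4.33, 4.25, 4.47, 4.55 and 3.96 in basal samples. It did not share the pattern of its neighbour Ccl21 on chromosome 5, since it changed by 0.08 in 29I1. Ccr7 was not analysed here.

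Ccl20, a ligand that recruits cells of mucosal immunity through Ccr6, was high on a single array. It read 4.99, 4.38, 4.15, 4.48 and 4.58 in final samples, against 4.19, 4.36, 4.07, 6.88 and 4.68 in basal samples. Only the basal biopsy of 29I1 was above 5, and the change there was -2.40. The mean change was -0.32, or -0.60 without 09I1. Ccr6 hardly varied, with 4.98, 5.09, 5.12, 5.21 and 5.22 in final samples, against 5.22, 4.71, 5.38, 5.48 and 4.82 in basal samples. Ligand and receptor changed in the same direction in 2 of 5 tumors, but Ccl20 changed by only 0.03, 0.08 and -0.10 in 11D2, 12I1 and 43D1.

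Ccl17 and Ccl22, ligands of Ccr4 on regulatory and helper T cells, lie close to each other and to Cx3cl1 on chromosome 19. Ccl17 changed by 0.64, 1.75, -0.14, -1.20 and -0.48. Ccl22 changed by 0.11, 1.33, 0.01, -1.08 and 0.01, so 11D2 and 29I1 carried the largest changes of both genes. Ccl27, a skin ligand of Ccr10, changed by -0.73 to 1.01, and Ccr10 itself by -0.47 to 0.49. Over the 7 homing CC ligands the median change was 0.64, 0.08, 0.08, -1.08 and 0.01.

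Cx3cl1, or fractalkine, a membrane-tethered ligand, read 7.62, 8.14, 8.18, 8.88 and 9.33 in final samples, against 9.65, 8.20, 7.92, 8.22 and 9.25 in basal samples. The change of -2.02 in 09I1 was far from the -0.06 to 0.66 of the other tumors, and it rests on the final array that stood apart. The mean change was -0.22 with that tumor and 0.24 without it. Its receptor Cx3cr1, carried by monocytes, macrophages and NK cells, read 5.87, 6.12, 5.96, 5.81 and 6.35 in final samples, against 6.14, 6.40, 6.63, 6.71 and 5.05 in basal samples. It was lower in 4 tumors and changed by 1.29 in 43D1, with a mean change of -0.17 ± 0.32 (SE, 5 tumors). Ligand and receptor changed in the same direction in 3 of 5 tumors. Xcl1, lymphotactin, which activated CD8 T cells and NK cells secrete, changed by 1.44, 0.20, 0.15, -0.67 and 1.99.

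The counts of small p values depended on tumor 29I1. When both its samples were left out, 10 of the 35 tested members had an unadjusted limma p under 0.05, all of them higher in final samples, or 28.6%. Of all tested probe sets 4.14% passed, and 2.11% passed and were higher. They were Ccl21, Ccl6, Ccl5, Xcl1, Ccl7, Ccl9, Ccl28, Cxcl9, Ccl3 and Cxcr3, and they were picked out by these values. All basal levels of Ccl9 in the remaining tumors lay below their arrays' lower quartiles. No adjusted p was under 0.05, the lowest being 0.945 for a member. Mean changes over the 4 remaining tumors were 2.28 ± 0.68 for Ccl21, 1.10 ± 0.28 for Ccl6, 0.99 for Ccl5 and 0.94 for Xcl1 (SE where given). These 4 include 09I1, whose final array stood apart. That tumor gave the largest of the 4 changes for Ccl21 (4.73), Ccl3 (1.22) and Cxcr3 (0.77), but not for the other genes named. On the same 4 tumors 10 of 17 T and NK cell markers had an unadjusted limma p under 0.05, all higher, among them the T cell receptor components Cd3d, Cd3e and Cd3g. None of 13 macrophage markers did, and 6 of 7 adipocyte markers did, also higher. The part of T and NK cells or of fat in these values was not tested. Tumor 29I1 was left out here after its values had been seen.

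Other genes of the pathway were taken from fixed lists. Over all tested probe sets 4.02% had an unadjusted limma p under 0.05, with 1.71% higher and 2.3% lower. Of 20 tested genes for receptor signalling, 1 had an unadjusted limma p under 0.05 and 0 passed after adjustment, with a median change of 0.02 over the list. That gene was Rgs1, a brake on chemokine receptor signalling in lymphocytes, at 7.78, 8.10, 9.11, 8.97 and 8.08 in final samples, against 6.84, 7.82, 8.35, 8.93 and 7.19 in basal samples. It was higher in every tumor, as 3.65% of all genes were, by 0.58 ± 0.18 on average (SE, 5 tumors), with an unadjusted limma p of 0.0151. Among platelet chemokines and atypical receptors, 1 of 6 tested genes had such a p, and it was lower in final samples. This was Pf4, platelet factor 4 or Cxcl4, at 9.42, 8.48, 7.45, 7.79 and 8.52 in final samples, against 10.34, 9.71, 9.67, 9.15 and 8.50 in basal samples. It was lower in 4 of 5 tumors, with a mean change of -1.14 ± 0.30 (SE, 5 tumors), an unadjusted limma p of 0.00612 and an adjusted p of 0.966. Of 11 tested cytokines and factors that induce chemokines, 0 had an unadjusted limma p under 0.05. Interferon gamma itself (Ifng) was below the lower quartile on all 10 arrays, as were Lta and Il4. Il1b, which induces κB-dependent chemokines, changed by 0.60, -0.76, -1.06, -2.08 and -0.38.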

How the data were processed

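RNA of 10 tumor samples was hybridised to Affymetrix Rat Genome 230 2.0 arrays. Values were deposited by the authors as log2 levels from the robust multichip average (RMA), per the labels' design text and the submitters' processing notes; they are not scanner intensities, and precision is limited by how many arrays there are. Genes were named from the platform annotation: of 31099 probe sets, 20826 carried 1 symbol and 436 several, and 57 were controls. All 38 members matched RefSeq (GRCr8) by Entrez gene number with the same symbol. The members and lists were chosen with earlier results of these data known.

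Controls were dropped, as were the dimmest 25% of the remaining probe sets by their mean over 10 arrays (under 4.11). A limma fit (version 3.58.1, R 4.3.3) of the other 23281 had tumor as a block, with the variance following intensity. Its p-values were Benjamini-Hochberg adjusted over all of them, with a threshold of 0.05. The tumor codes in the labels pair the samples. Deviations of paired samples from their group means correlated at 0.07, 0.09, 0.01, -0.15 and 0.22 over the 5 tumors. Each p-value sets the mean change within tumors against the spread of that change over these tumors. That spread is moderated toward that of other probe sets. The fit was checked on simulated data. Values on every array are given for 22 ligands and receptors fixed by known binding, of which 20 were measured, and for members with 1 sign in all 5 tumors (up to 6 per direction). Of other lists, up to 3 genes with the smallest p are named. Ccl28, and the genes named from the fit without 29I1, were named after their values were seen. Alternatives were no block, a random block, other filters, cyclic loess, median centring, array weights, no trend, the methods' paired t-test, the mean over probe sets, and each tumor left out.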

Additional observations from a re-analysis of the deposited data

Results flagged for a closer look

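For each chemokine gene the 5 final levels, the 5 basal levels and the 5 changes were searched for a single value set apart by a gap of more than 0.71 of the whole range (Dixon's criterion). Of 114 sets of 5 values, 10 held such a value, where chance gives about 5.7.

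Of the 10 values, 4 belong to tumor 29I1. Ccl20 read 6.88 in the basal biopsy of 29I1, against 4.07 to 4.68 in the other basal samples, and its change there was -2.40, against -0.10 to 0.80. Ccl9, a rodent ligand of Ccr1, read 4.63 in the basal biopsy of 29I1, against 3.79 to 3.99 in the others. Those lower values all lay below their arrays' lower quartiles. Cxcr3 changed by -1.37 in 29I1, against 0.15 to 0.77 in the other tumors.

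A further 4 belong to 09I1, whose final array stood apart in its correlation and its beta-actin difference. Its final sample had Ccl3 at 6.41, against 5.58 to 5.71 in the other final samples. Ccl7 read 5.79 in that sample, against 7.90 to 8.51. Cx3cl1 changed by -2.02 in 09I1, against -0.06 to 0.66 elsewhere. The basal biopsy of 09I1, whose array did not stand apart, had Cxcl14 at 6.80, against 9.76 to 10.18.

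The others are Cxcl3, at 7.22 in the basal biopsy of 12I1 against 5.89 to 6.15, and Cxcr2, at 5.45 in the final sample of 11D2 against 4.15 to 4.35.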

How the results depend on the processing

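No chemokine gene had an adjusted p under 0.05 in any of the 15 alternatives, the lowest being 0.423 with array weights. The count at an unadjusted p under 0.05, which was 2 of 35 with tumor as a replicate block, was 0 with no replicate block, 0 with a random replicate block, 0 when the dimmer 50% of probe sets were dropped, 0 by the methods' paired t-test and 0 when probe sets of a gene were averaged. It was 1 with cyclic loess (Ccl28) and 1 with array weights (Ccl9), where 10.5% of all probe sets passed. Leaving out 1 tumor at a time gave 1 to 10 genes, the highest without 29I1. The median change of ligands was -0.02 to 0.37, and that of receptors -0.00067 to 0.22, when 1 tumor was left out.

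The medians within each tumor kept their sign under cyclic loess, median centring and the mean over probe sets (chosen after seeing the data), at 0.35 to 0.57 in 09I1, -0.72 to -0.57 in 29I1 and 0.60 to 0.69 in 43D1. The number of genes with the narrower final range was 22 to 25 under these 3 settings.

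The direction of single genes often depended on the setting: of 300 alternative values for 20 genes 36 changed sign, 27 of them by leaving out a tumor, and Ccl5 and Cxcl1 never did. Leaving out 1 tumor gave 0.43 (without 43D1) to 0.99 (without 29I1) for Ccl5 and -1.34 (without 09I1) to -0.10 (without 12I1) for Cxcl1. With array weights the mean change became 0.15 for Ccr6, 0.067 for Cx3cl1, 0.47 for Cxcl13, -0.12 for Cxcl2 and 0.00035 for Cxcr5. Median centring gave 0.028 for Ccr6 and 0.021 for Cxcr5. The mean over probe sets gave -0.031 for Cxcr4 and 0.067 for Cxcr5. When 1 tumor was left out, mean changes ran over -0.013 to 0.22 for Ccl19, -0.88 to 0.0019 for Ccl2, -0.60 to 0.20 for Ccl20, -0.14 to 2.28 for Ccl21, -0.37 to 0.78 for Ccr2, -0.10 to 0.067 for Ccr6, -0.44 to 0.24 for Cx3cl1 and -0.53 to 0.018 for Cx3cr1. For CXC genes they ran over -0.81 to 0.073 for Cxcl10, -0.73 to 0.56 for Cxcl11, -0.32 to 0.15 for Cxcl12, -1.14 to 0.41 for Cxcl13, -0.32 to 0.36 for Cxcl2, -0.11 to 0.65 for Cxcl9, -0.00067 to 0.52 for Cxcr2, -0.0085 to 0.52 for Cxcr3, -0.16 to 0.27 for Cxcr4 and -0.15 to 0.13 for Cxcr5. The cause of these changes was not tested. Probe sets near the lower quartile, such as those of Cxcr1, Cxcl6 and Ccr4, allow no statement on a difference.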

Other observations

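Markers of further cell types gave these median changes in the order 09I1, 11D2, 12I1, 29I1 and 43D1. The 10 fibroblast genes had -0.51, 0.99, 0.71, -1.20 and -0.25, the 9 endothelial genes 0.47, 0.28, 0.26, -0.60 and 0.06, and the 8 adipocyte genes 0.79, 1.62, 0.09, -0.80 and 0.65. The 5 dendritic cell genes had -0.29, 0.53, -0.01, -0.81 and 0.36, and the 12 mammary epithelium genes -0.53, 0.04, 0.01, 0.32 and 0.21. In 29I1 all of these lists but epithelium and the 9 skeletal muscle genes had a negative median, as the chemokine ligands and receptors did. Their part in the chemokine values was not tested.

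Of the 5 dendritic cell genes, 1 had a positive and 4 a negative mean change, with a median of -0.21. Batf3, a transcription factor of cross-presenting dendritic cells, was higher in the final sample of every tumor, by 0.67 ± 0.19 on average (SE, 5 tumors), with an unadjusted limma p of 0.0101 and an adjusted p of 0.977. Among all genes 3.65% were higher in 5 of 5 tumors. Flt3, a growth factor receptor of dendritic cell precursors, was lower in 5 of 5, where 2.31% of all genes were, with a mean change of -0.21. Clec9a, a receptor of cross-presenting dendritic cells, had a mean change of -0.38. Of the 7 measured neutrophil markers, 2 had a positive and 5 a negative mean change. The alarmin gene S100a9, named for the smallest limma p of that list, was lower in 4 of 5 final samples. Its changes were 0.58, -1.51, -2.81, -2.28 and -0.83. Camp of the same list was higher in 5 of 5 tumors, by 0.03 to 0.42, where 3.65% of all genes were.

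Chemokine genes measured by several probe sets did not always give 1 answer. Of the 5 probe sets of Cxcl3, the 3 that passed the filter had mean changes of -0.66, -0.32 and -0.14, and each had its most negative change in 12I1.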
